A study of Homo sapiens with 6 samples.

Results

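Clear cell renal carcinoma cells that carried ZNF395 hairpin 3 were compared with cells that carried ZNF395 hairpin 1. Both reagents are short hairpin RNAs (shRNAs, which a cell processes into a small guide RNA that lowers a matching transcript) against the same gene. The comparison used 4 of the 6 libraries of the series, chosen by the hairpin and the line in their labels: hairpin 3 and hairpin 1 in 786-O, and hairpin 3 and hairpin 1 in A-498. The remaining 2 libraries, 1 per line, carried a non-targeting hairpin and served as the reference level. Both lines are established human clear cell renal carcinoma lines. All 6 cultures were grown in RPMI-1640 with 10% serum, transduced with retroviral particles carrying MISSION constructs that had been packaged in HEK293T cells, and kept in puromycin for 3 days. Stranded total RNA libraries were sequenced. The labels do not say whether a culture was a pool or a clone, and each line and hairpin had 1 library. The lines therefore served as the replicates (n = 2 per hairpin), and no difference between the lines could be tested. With the line in the model, the p-values weigh each difference against how far the differences between constructs varied between the 2 lines. The control libraries also enter that spread. The model also draws the spread of each gene toward a trend over all genes, so part of it is borrowed from other genes. No source used here gives either hairpin's guide sequence.

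ZNF395 is a zinc finger protein whose gene is active in clear cell renal carcinoma. A pair of hairpins against 1 target shares the loss of that target, while each guide also has its own set of partly matching transcripts, and cells can respond to the delivery itself. A direct comparison of hairpin with hairpin shows which genes and functions differ between the reagents. It does not show which of the reagents departs from the non-targeting control, so the control level is given beside the genes described with CPM values. Every culture was transduced, so no untreated cells were measured.

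For ZNF395 itself the 786-O libraries gave 96.3, 24.7 and 13.5 CPM in the order control, hairpin 1, hairpin 3 (CPM are counts scaled to a common library size after TMM correction for library make-up). The A-498 libraries gave 67.9, 14.5 and 14.3 CPM in the same order. Both hairpins lay below the control in both lines. Hairpin 3 minus hairpin 1 was -0.44 on the log2 scale (SE 0.205, adjusted p = 0.216), -0.87 in 786-O and -0.03 in A-498, so the remaining ZNF395 was not called different. Its gene overlaps FBXO16 on the same strand in the annotation, so some of its reads could belong to that gene. The levels measured with the hairpins were 14.5 and 14.3 CPM in A-498 and lay farther apart in 786-O, each from 1 library.

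Of 20144 genes tested, 1910 were called at an adjusted p under 0.05 (9.48%): 823 higher with hairpin 3 (4.09%) and 1087 lower (5.4%). These shares are the background for every count below. Among the 13848 tested genes annotated as protein-coding, 11.9% were called. Of the 11012 genes at a mean of at least 5 CPM in the hairpin libraries, 1462 were called. These higher shares are the closer reference for lists of expressed protein-coding genes. The median log2 difference over all tested genes was -0.008, and 49.3% of them were positive. Among the called genes, 298 were at least 2-fold higher and 593 at least 2-fold lower with hairpin 3. The fold was reached in both lines by 191 of the higher and 399 of the lower genes. By line, 967 called genes differed at least 2-fold in A-498 and 759 in 786-O, with no test between the lines. The direction was the same in both lines for 1888 called genes, 17 showed no difference in 1 line and 5 differed in sign. A call across 2 lines requires that they move alike, so the like signs follow from the test. Over the 11012 genes at a mean of at least 5 CPM, called or not, 70.1% had the same sign in both lines, and the line differences correlated across genes at Pearson r 0.576. Genes are not independent replicates, and the libraries of a line share its normalization. Without the line as a block, no gene was called (0 of 20144), 731 reached an unadjusted p under 0.05, and in the fit with the block 5632 did. Limma-voom and DESeq2, both with the block, called 1883 and 2990 genes.

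**Figure D1:**
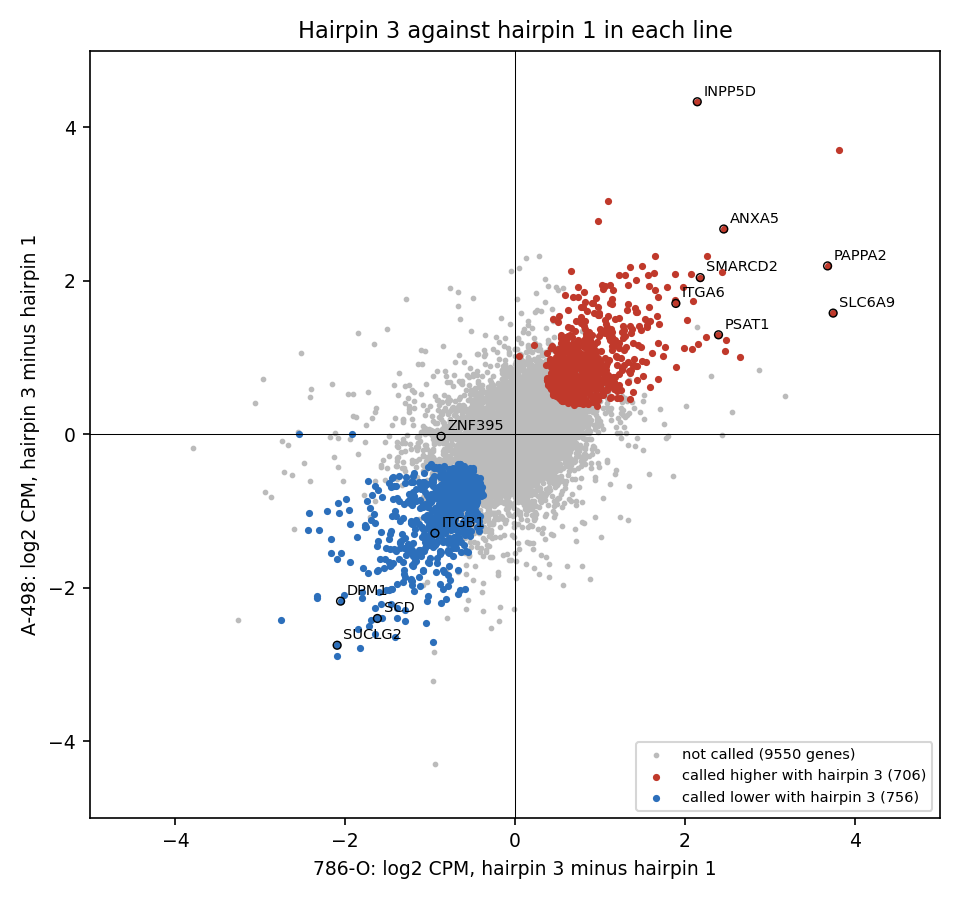
The difference between hairpin 3 and hairpin 1 (log2 CPM) in 786-O on the x axis and in A-498 on the y axis, 1 point per gene with a mean of at least 5 CPM in the hairpin libraries. Red points were called higher and blue points lower with hairpin 3; ANXA5 lies at 2.46 and 2.68, SUCLG2 at -2.1 and -2.75, and the target ZNF395 at -0.87 and -0.03.

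Library totals ran from 77534125 to 99147218 counts, and genes of mitochondrial DNA took 5.13 to 8.21% of them. The kidney marker PAX8 (157 to 256 CPM) and the keratin KRT8 (589 to 1320 CPM) were present in every library. CA9 and NDUFA4L2, which mark clear cell carcinoma, were at most 1.68 and 1.16 CPM. The endothelial, immune and fibroblast markers CDH5, VWF, PTPRC, DCN and PDGFRA were at most 0.125 CPM in all libraries. Other markers of these types were higher: KDR reached 0.28 CPM and CD14 0.761 CPM. The fibroblast marker LUM was at 3.9 to 4.2 CPM in 786-O, and COL1A1 at 18.5 to 40.8 CPM in A-498. The summed endothelial list lay between 0.549 and 2.33 CPM, the immune list between 1.47 and 6.19 CPM and the fibroblast list between 7.15 and 42.0 CPM, and edgeR called 0 members of these lists, with 1 endothelial and 1 fibroblast marker at an unadjusted p under 0.05 and 0 called by DESeq2 or limma-voom. Of the HEK293-associated genes, NEFL stood at 200 to 398 CPM and NEFM at 44.1 to 45.2 CPM in A-498. NEFM was at most 0.74 CPM in 786-O, LIN28B at most 0.0128 CPM and SOX2 at most 0.761 CPM.

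The control level split the called genes. In both lines, 1307 of 1910 (68.4%) had hairpin 3 farther from the control than hairpin 1, and 266 (13.9%) had hairpin 1 farther. The same shares over genes at 5 CPM or more were 44.6% and 16.1%. For genes called lower with hairpin 3, the counts were 819 of 1087 against 92, and for genes called higher 488 of 823 against 174. The control lay between the hairpins in both lines for 1075 called genes (56.3%), against 23.7% of genes at 5 CPM or more. Both ratios use the same control library of each line, so these are counts of positions with no test. The called genes were chosen for a gap between the hairpins, so a larger share with the control between them follows partly from the choice. They also include genes under 5 CPM, which the comparison set does not.

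A first group of genes was low with hairpin 1 and near the control with hairpin 3. ANXA5, a calcium-dependent protein that binds phosphatidylserine, was at 565, 110 and 604 CPM (control, hairpin 1, hairpin 3) in 786-O and at 938, 139 and 887 CPM in A-498. Both hairpin 1 libraries lay far below the other 4. Hairpin 3 minus hairpin 1 was 2.56 (log2, SE 0.15, adjusted p = 0.0039), among the 6 smallest p-values of the table.

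AP1M1, the medium subunit of the AP-1 clathrin adaptor that sorts cargo at the Golgi, followed the same order. It stood at 106, 31.6 and 151 CPM (control, hairpin 1, hairpin 3) in 786-O and at 60.2, 13.8 and 68.7 CPM in A-498, a difference of 2.29 (SE 0.144, adjusted p = 0.0039). SMARCD2, a subunit of the SWI/SNF chromatin remodelling complex, stood at 97.8, 27.2 and 123 CPM in 786-O and at 83.8, 26.9 and 111 CPM in A-498, a difference of 2.11 (SE 0.124, adjusted p = 0.0039). For both genes each hairpin 1 library was the lowest of its line. Named genes were chosen on this same comparison, so a gap between the hairpins follows from the choice.

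Other subunits of the AP1M1 and SMARCD2 complexes and other annexins, a set chosen after their values were seen, were not called in the same direction. Among 6 AP-1 adaptor genes, AP1M1 was called higher and AP1G1 lower (-0.74), and the others were not called. Among 8 SWI/SNF genes, SMARCD2 was called higher and SMARCE1 lower (-0.9), while SMARCA4 differed by -0.02. Among 7 annexins, ANXA5 was called higher and ANXA2 lower (-0.61).

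Other genes were low with hairpin 3 and close to the control with hairpin 1. DPM1, the catalytic subunit of the synthase that makes dolichol-phosphate mannose for protein glycosylation, was at 76.0, 81.5 and 19.6 CPM (control, hairpin 1, hairpin 3) in 786-O and at 57.3, 58.4 and 12.9 CPM in A-498. Control and hairpin 1 differed little, and both hairpin 3 libraries were the lowest. The difference was -2.12 (SE 0.125, adjusted p = 0.0039). The other subunits, DPM2 (0.08) and DPM3 (-0.11), were not called.

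SUCLG2, the GTP-specific subunit of the citric acid cycle enzyme succinyl-CoA ligase, was at 107, 106 and 24.7 CPM in 786-O and at 74.5, 74.0 and 11.0 CPM in A-498. The difference was -2.41 (SE 0.192, adjusted p = 0.00659). SUCLG1 (-0.19), the partner subunit, and SUCLA2 (-0.11), the alternative to SUCLG2 in the enzyme, were not called. Kinesin-2, the motor that carries cargo along cilia and microtubules, differed in most of its subunits: KIFAP3 (-2.12), KIF3B (-1.82) and KIF3A (-0.79) were called lower, and KIF3C (-0.06) was not called. KIFAP3 stood at 24.9, 39.7 and 12.6 CPM (control, hairpin 1, hairpin 3) in 786-O and at 119, 193 and 31.7 CPM in A-498, so hairpin 1 lay above the control and hairpin 3 below it in both lines.

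A further group was high with hairpin 3 alone. IL1RAP, the co-receptor of the interleukin-1 receptor, was at 24.8, 24.1 and 89.2 CPM in 786-O and at 19.7, 17.4 and 73.8 CPM in A-498, a difference of 1.99 (SE 0.127, adjusted p = 0.0039). SLC2A3, the glucose transporter GLUT3, was at 27.5, 32.0 and 135 CPM in 786-O and at 42.8, 36.0 and 153 CPM in A-498, a difference of 2.08 (SE 0.158, adjusted p = 0.00609). For both, the 2 hairpin 3 libraries stood above the other 4, which lay close together.

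The largest higher folds included genes present mainly in 1 line. The non-coding transcript RP11-115D19.1 was at 0.19, 0.14 and 2.28 CPM in 786-O and at 5.29, 3.05 and 39.9 CPM in A-498 (log2 difference 3.83). INPP5D, a lipid phosphatase known from blood cells, was at 1.18, 0.587 and 2.68 CPM in 786-O and at 2.91, 0.786 and 16.3 CPM in A-498 (3.39), with hairpin 1 below the control and hairpin 3 above it. PAPPA2, a protease of insulin-like growth factor binding proteins, was at 1.78, 2.09 and 27.1 CPM in 786-O and at 0.291, 0.624 and 2.94 CPM in A-498 (3.05). KANK3 was below 0.03 CPM in every 786-O library, so its difference of 3.06 rests on A-498, with 6.33, 2.28 and 19.0 CPM. SLC6A9, a glycine transporter (2.56), and BARX2, a homeobox factor (2.26), complete the 10 largest increases with ANXA5, AP1M1, SMARCD2 and SLC2A3.

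The ranking of decreases left out called genes under 5 CPM on average, among them MT1F (-2.78) and CSF2 (-2.6). Among its 10 largest decreases, SUCLG2, DPM1 and KIFAP3 have been described. The others were ITGAX, an integrin chain of myeloid cells (-2.52), AIF1L (-2.43), PLEK (-2.3), the focal adhesion protein TNS1 (-2.29), the non-coding RNA UCA1 (-2.22), FAM49A (-2.19) and PIK3AP1 (-2.17). TNS1 was at 40.5, 44.7 and 12.6 CPM in 786-O and at 46.1, 59.1 and 8.56 CPM in A-498. ITGAX was mainly an A-498 transcript, at 22.0, 29.9 and 5.58 CPM there and at 0.822, 0.945 and 0.12 CPM in 786-O. UCA1 was mainly a 786-O transcript, at 19.1, 23.0 and 5.12 CPM there and under 0.08 CPM in A-498.

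**Figure D2:**
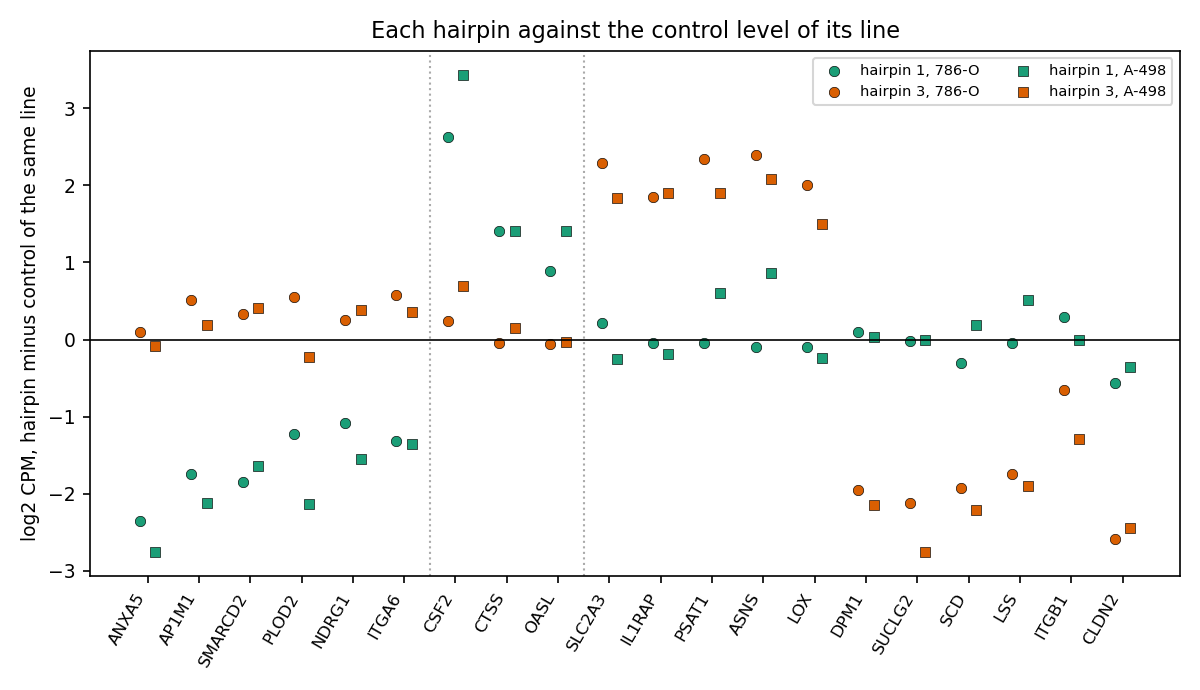
The level of 20 genes with each hairpin relative to the control of the same line (y axis, log2 CPM difference; circles 786-O, squares A-498; green hairpin 1, orange hairpin 3), 1 library per point. Genes left of the first dotted line had hairpin 1 below the control in both lines (ANXA5 -2.36 and -2.76), and the next 3 had hairpin 1 above it. The others had hairpin 3 farther from the control in both lines (SUCLG2 -2.12 and -2.76). The control libraries are shared by both hairpins.

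Functions were described with 37 gene lists, 33 of them functions and 4 of them markers of other cell types. Each list is given by the number of tested members called in each direction and by its median log2 difference, and no list carries a test of its own. The lists with the largest numbers called higher with hairpin 3 were HIF targets outside glycolysis (16), ATF4 and amino acid stress genes (14) and p53 targets (11). Those with the largest numbers called lower were cholesterol synthesis (15), fatty acid synthesis (9) and NF-kB and inflammatory genes (9).

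**Figure D3:**
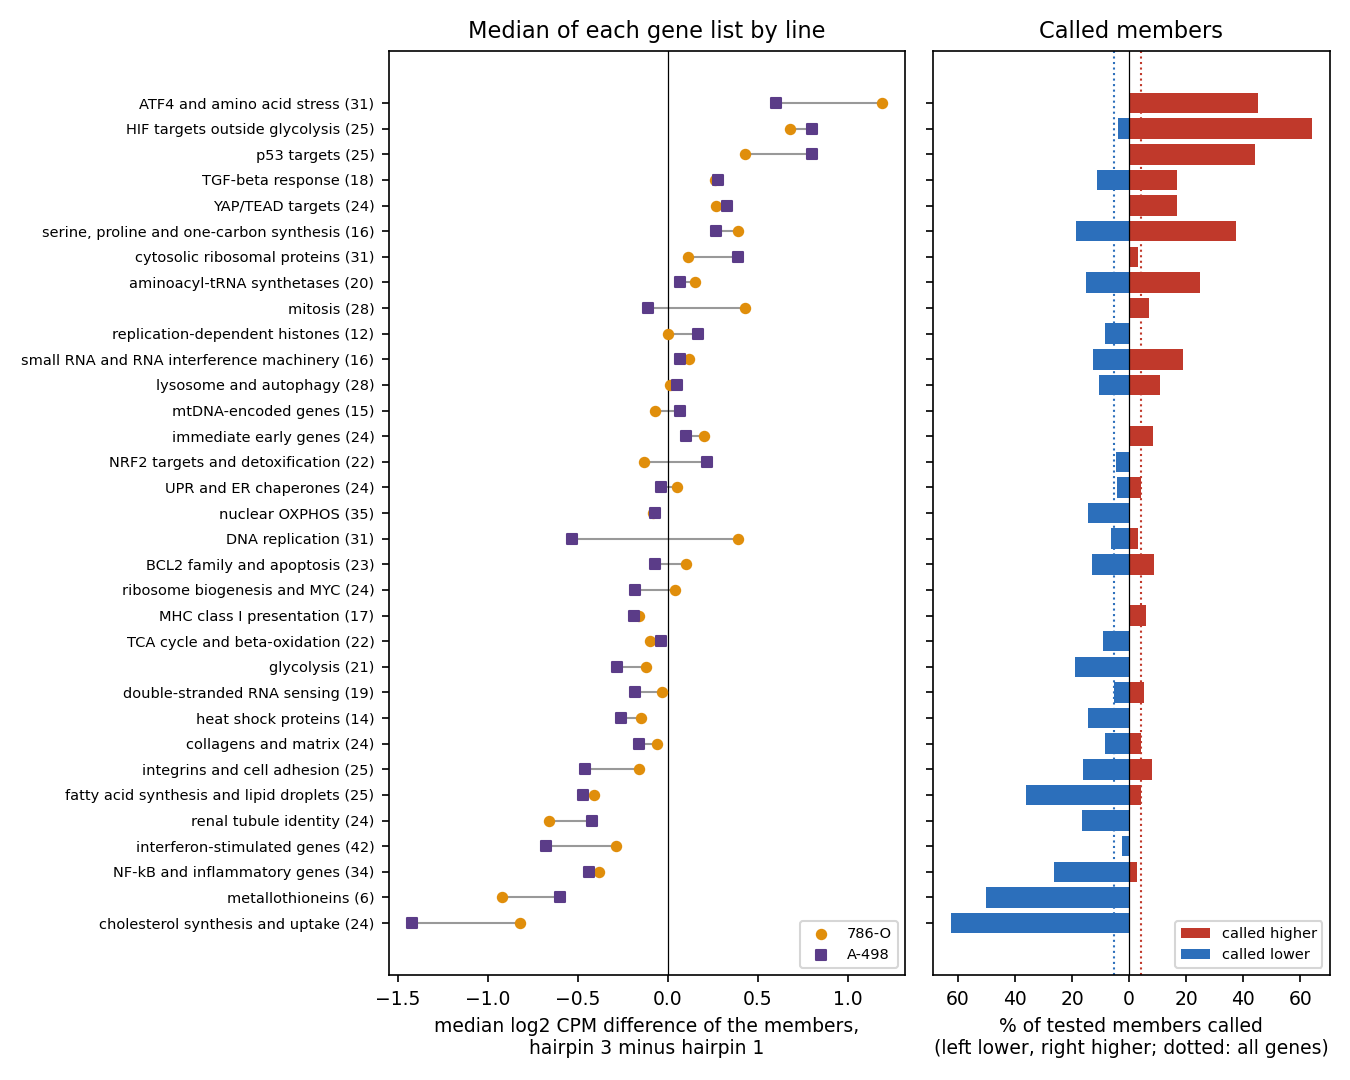
Left, the median log2 CPM difference (hairpin 3 minus hairpin 1) of each function list in 786-O (orange circles) and A-498 (purple squares), with the number of tested genes in parentheses. Right, the percentage of members called higher (red, to the right) and lower (blue, to the left), with dotted lines at the shares over all genes, 4.09 and 5.4%. Cholesterol synthesis has medians of -0.82 and -1.42, and ATF4 genes of 1.19 and 0.6.

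ATF4 is the transcription factor that cells make when amino acids run short or translation initiation is restrained, and it raises amino acid transporters and synthesis enzymes. Of 31 tested genes of this list, 14 were called higher and 0 lower with hairpin 3, with a median of 0.85 (1.19 in 786-O, 0.6 in A-498). ATF4 itself, singled out here and below among genes chosen after their values were seen, was at 439, 406 and 926 CPM (control, hairpin 1, hairpin 3) in 786-O and at 258, 348 and 705 CPM in A-498. Each hairpin 3 library was the highest of its line, and the difference was 1.1 (SE 0.162, adjusted p = 0.0146).

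Among amino acid carriers, calls went to the glutamine transporters SLC38A2 (1.22, SE 0.129, adjusted p = 0.00899) and SLC1A5 (1.34, SE 0.161, adjusted p = 0.0101), and SLC7A5, which imports large neutral amino acids (1.14, adjusted p = 0.011). Calls also went to the glycine transporter SLC6A9 (2.56, adjusted p = 0.0256) and to SLC3A2 (0.85, adjusted p = 0.041). SLC7A11 was not called (-0.01, adjusted p = 0.993), with opposite differences of 1.01 in 786-O and -1.34 in A-498. Also not called were SLC7A1 (0.18, adjusted p = 0.501) and SLC1A4 (0.49, adjusted p = 0.168). SLC38A2 was at 230, 212 and 524 CPM (control, hairpin 1, hairpin 3) in 786-O and at 172, 190 and 418 CPM in A-498. The asparagine synthetase ASNS stood at 56.7, 53.2 and 298 CPM in 786-O and at 83.0, 150 and 352 CPM in A-498, a difference of 1.83 (SE 0.286, adjusted p = 0.0172). CTH, which makes cysteine (1.31), SESN2, a leucine sensor upstream of mTORC1 (1.21), the glutathione-degrading enzyme CHAC1 (1.78) and the peptide hormones ADM2 (1.65) and STC2 (1.11) were also called higher. Hairpin 1 itself lay above the control in A-498 for this list (median 0.53) and not in 786-O (-0.12), while hairpin 3 lay above it in both (1.15 and 1.06). The count became 13 with only the 4 hairpin libraries and 22 with DESeq2, and it moved in both directions when single libraries were left out.

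The composite site that ATF4 binds with C/EBP partners was searched as TGATGNAA on both strands in RefSeq promoters of GRCh38.p14 (250 bases before to 50 after each gene's start). It was found in 3.67% of all 27305 promoters, in 1.88% of the 11303 promoters matched to tested genes, in 5 of 25 matched members of the ATF4 list and in 3 of its 13 matched called members. Over all genes called higher it was found in 2.33% of 558. The stretches around the match are shown for ASNS and CHAC1, the called members with a match before the start, since their transcripts rose together; capitals mark the match, which in CHAC1 lies on the opposite strand.
ASNS, chr7:97872439-97872506, minus strand, first base of the match 68 before the start: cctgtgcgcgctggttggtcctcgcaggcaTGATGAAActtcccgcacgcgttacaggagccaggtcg
CHAC1, chr15:40953232-40953299, plus strand, 209 before the start: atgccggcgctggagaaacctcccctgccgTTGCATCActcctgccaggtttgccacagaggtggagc
A match is a description of letters in this window and not evidence of binding.

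Enzymes of serine, proline and one-carbon synthesis split. Of 16 tested genes, 6 were called higher and 3 lower (median 0.27). PSAT1, an enzyme of serine synthesis, was at 145, 140 and 736 CPM in 786-O and at 168, 256 and 628 CPM in A-498. Both hairpin 3 libraries were at least 2-fold above hairpin 1 of their line, and the difference was 1.84 (SE 0.251, adjusted p = 0.0126). The mitochondrial folate enzymes ALDH1L2 (1.54), MTHFD2 (0.95), SHMT2 (0.8) and MTHFD1L (0.75) were called higher. The cytosolic SHMT1 (-0.69) and the proline synthesis enzymes PYCR1 (-0.93) and PYCRL (-0.57) were called lower. The 6 increases became 2 without the 786-O hairpin 1 library.

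Aminoacyl-tRNA synthetases, which load tRNAs, split as well, with 5 of 20 called higher and 3 lower (median 0.17). AARS (0.99), MARS (0.79), GARS (0.7), SARS (0.67) and YARS (0.61) were higher, and FARSB (-1.03), KARS (-0.66) and RARS (-0.58) lower. The 5 increases became 1 without the 786-O hairpin 1 library, 3 without either control and 2 with only the 4 hairpin libraries. MARS overlaps DDIT3 on the opposite strand, and no source used here gives the strand setting of the counting. Of 24 chaperone and stress genes of the endoplasmic reticulum, HERPUD1 was called higher (0.77) and PDIA4 lower (-0.9), with a median of -0.01.

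Cells make cholesterol from acetyl-CoA through the mevalonate pathway, whose genes are raised by SREBP2 when membranes lack sterol. Of 24 tested genes of cholesterol synthesis and uptake, 15 were called lower and 0 higher with hairpin 3 (median -1.08, -0.82 in 786-O and -1.42 in A-498). HMGCS1, an early enzyme, was at 335, 376 and 160 CPM in 786-O and at 127, 254 and 68.5 CPM in A-498, a difference of -1.58 (SE 0.21, adjusted p = 0.0119). Hairpin 3 libraries were the lowest of each line.

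Later enzymes were called lower: IDI1 (-1.56) makes isoprenoid units, SQLE (-1.43) oxidises squalene, LSS (-2.06) closes the sterol ring, and MSMO1 (-1.58) and DHCR7 (-1.86) act on the sterols that follow. LSS was at 118, 114 and 35.4 CPM in 786-O and at 45.5, 65.1 and 12.2 CPM in A-498 (SE 0.192, adjusted p = 0.00813). Not called were CYP51A1 (-0.48, adjusted p = 0.268), EBP (-0.5), SC5D (-0.47), HSD17B7 (-0.57) and TM7SF2 (-0.24), which also act on sterols, and PMVK, the 1 member with a positive difference (0.42, adjusted p = 0.0783). In 786-O hairpin 1 lay at the control (median -0.01) and hairpin 3 below it (-0.77). In A-498 hairpin 1 lay above the control (0.63) and hairpin 3 below (-0.91). Leaving out single libraries gave 13 to 19 called members. The sterol element core CACCCCAC was found in 0 of 10 matched called members and in 2.72% of all promoters.

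Fatty acid synthesis and lipid droplet genes had 9 of 25 genes called lower and 1 higher (median -0.39). SCD, which places the double bond in saturated fatty acids, was at 481, 388 and 126 CPM in 786-O and at 388, 444 and 84.0 CPM in A-498, a difference of -2.02 (SE 0.199, adjusted p = 0.00846). Hairpin 3 gave the lowest level in each line. ACLY, which supplies cytosolic acetyl-CoA (-0.85), and ACACA, the first committed enzyme (-0.76), were called lower. ELOVL5, an elongase of polyunsaturated fatty acids, was called higher (0.94), at 295, 164 and 342 CPM in 786-O and at 161, 85.2 and 149 CPM in A-498, low with hairpin 1 in both lines. The 9 decreases became 4 without the 786-O hairpin 1 library and 3 without that of A-498.

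Clear cell carcinoma cells that lack VHL keep hypoxia-inducible factors stable, and HIF-2 alpha, encoded by EPAS1, is the form both lines are known for. EPAS1 was at 158, 122 and 259 CPM in 786-O and at 115, 78.4 and 208 CPM in A-498. Each hairpin 3 library was the highest and each hairpin 1 library the lowest of its line, a difference of 1.25 (SE 0.132, adjusted p = 0.00899). HIF1A was at 8.34, 7.22 and 8.15 CPM (control, hairpin 1, hairpin 3) in 786-O and at 347, 245 and 152 CPM in A-498. It was not called (-0.24, adjusted p = 0.589). The difference was 0.17 in 786-O and -0.68 in A-498, where hairpin 3 gave the lowest level.

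Of 25 tested HIF targets outside glycolysis, 16 were called higher and 1 lower with hairpin 3 (median 0.83, 0.68 in 786-O and 0.8 in A-498). Enzymes that modify collagen were among them. PLOD2, a lysyl hydroxylase, was at 646, 275 and 947 CPM in 786-O and at 760, 173 and 651 CPM in A-498, a difference of 1.84 (SE 0.229, adjusted p = 0.0105). LOX, which cross-links collagen, was at 3.78, 3.55 and 15.2 CPM in 786-O and at 9.53, 8.05 and 27.0 CPM in A-498 (1.92, SE 0.187, adjusted p = 0.00821). PLOD2 was low with hairpin 1, and LOX was high with hairpin 3.

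NDRG1, a stress protein, resembled PLOD2 with 820, 389 and 974 CPM in 786-O and 667, 227 and 872 CPM in A-498 (1.63, SE 0.178, adjusted p = 0.00899). The prolyl hydroxylases P4HA1 (0.98) and EGLN3 (0.91), the chemokine receptor CXCR4 (1.32), the secreted STC1 (1.39), VEGFA (0.64) and the cyclin CCND1 (0.83) were called higher, and the growth factor TGFA lower (-0.78). Over the list, hairpin 1 lay below the control in both lines (medians -0.1 in 786-O and -0.58 in A-498) and hairpin 3 above it (0.56 and 0.33). CA9 and NDUFA4L2 are among the 16 called and were under 2 CPM. The 16 increases became 10 without the 786-O hairpin 1 library and 6 without that of A-498.

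Glycolysis genes, many of which HIF also raises, were not called higher with the other targets. Of 21, 0 were called higher and 4 lower (median -0.12): ALDOC (-1.78), PFKFB4 (-1.44), PGAM1 (-0.79) and PFKM (-0.71). PFKFB4 was at 28.0, 36.0 and 15.7 CPM in 786-O and at 12.5, 21.4 and 6.67 CPM in A-498, lowest with hairpin 3 in each line.

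The p53 protein raises genes of growth arrest, repair and death after DNA damage and other stress. Of 25 tested targets, 11 were called higher and 0 lower (median 0.72, 0.43 in 786-O and 0.8 in A-498). BBC3, which encodes the death activator PUMA, was at 16.9, 14.7 and 37.9 CPM in 786-O and at 23.8, 23.7 and 59.4 CPM in A-498. Hairpin 1 lay close to the control in each line, and the difference was 1.35 (SE 0.13, adjusted p = 0.00821). FDXR, a mitochondrial electron donor (1.54), BTG2, an antiproliferative factor (1.68), SESN1 (1.3) and GADD45A (1.0) were also higher. A pair of classical targets was not called: CDKN1A, which encodes the cell cycle inhibitor p21, differed by -0.7 (adjusted p = 0.0591), and MDM2, the ligase that degrades p53, by 0.1 (adjusted p = 0.683). The count became 10 with only the 4 hairpin libraries and 14 with DESeq2, and it moved in both directions when single libraries were left out.

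**Figure D4:**
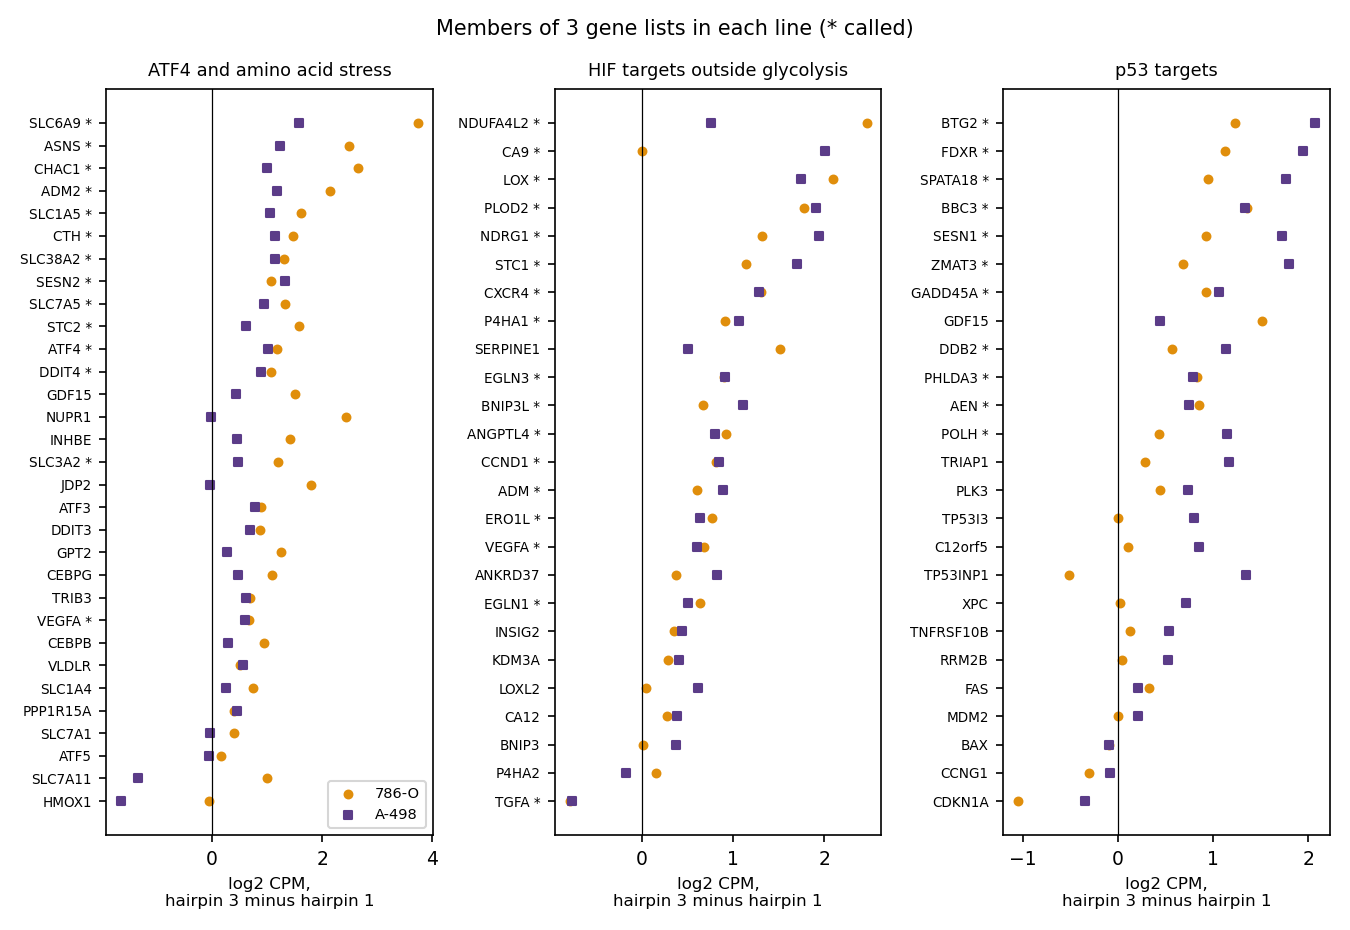
The log2 CPM difference between hairpin 3 and hairpin 1 for each tested member of 3 lists (x axis; 1 gene per line of the plot), in 786-O (orange circles) and A-498 (purple squares); asterisks mark called genes. All but TGFA of the called HIF targets lie at or above 0 in both lines, while CDKN1A lies below 0 among the p53 targets.

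NF-kB is the factor that turns on cytokines and survival genes in inflammation. Of 34 tested NF-kB and inflammatory genes, 9 were called lower and 1 higher with hairpin 3 (median -0.52). The list lay above the control with hairpin 1 (medians 1.01 in 786-O and 0.59 in A-498) and less so with hairpin 3 (0.51 and 0.25). The growth factor CSF2 was at 0.898, 5.66 and 1.07 CPM in 786-O and at 0.491, 5.55 and 0.807 CPM in A-498, a difference of -2.6 (SE 0.277, adjusted p = 0.00899). Both hairpin 1 libraries stood above the other 4. The chemokine CCL5 was at 2.56, 6.87 and 2.77 CPM in 786-O and at 38.5, 216 and 44.3 CPM in A-498, a difference of -1.86 (SE 0.263, adjusted p = 0.0138).

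IL1B (-2.21), PTGS2 (-1.3), CCL2 (-1.72), SOD2 (-1.1), BIRC3 (-1.02), IL32 (-0.87) and NFKBIZ (-0.76) were the other genes called lower. In 786-O, IL1B was at most 0.14 CPM and PTGS2 at most 0.677 CPM, and in A-498 they were at most 4.46 and 3.78 CPM. CXCL2, a neutrophil attractant, was called higher (0.93), at 2.95, 5.5 and 12.9 CPM in 786-O and at 13.4, 25.5 and 39.8 CPM in A-498. The 9 decreases became 3 without the 786-O hairpin 1 library.

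The NF-kB core GGNNTTTCC, searched on both strands, was found in 6.26% of all promoters, in 17 of 27 matched members of the list and in 4 of its 8 matched called members. These 4 promoters are shown because CXCL2 differed in direction from BIRC3, IL32 and NFKBIZ and still holds the same core; capitals mark the matches, on the opposite strand in BIRC3.
IL32, chr16:3065275-3065373, plus strand, 98 and 68 before the start: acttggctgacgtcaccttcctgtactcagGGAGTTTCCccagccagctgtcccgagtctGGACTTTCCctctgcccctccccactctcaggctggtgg
NFKBIZ, chr3:101827740-101827806, plus strand, 222 before the start: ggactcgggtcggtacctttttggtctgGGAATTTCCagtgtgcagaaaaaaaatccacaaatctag
BIRC3, chr11:102317255-102317323, plus strand, 199 before the start: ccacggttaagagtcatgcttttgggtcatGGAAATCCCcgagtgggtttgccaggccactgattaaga
CXCL2, chr4:74099210-74099302, minus strand, 77 and 53 before the start: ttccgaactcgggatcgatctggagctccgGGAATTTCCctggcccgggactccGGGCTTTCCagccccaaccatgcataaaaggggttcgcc

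Interferon-stimulated genes, the antiviral set that double-stranded RNA can turn on, had few calls. Of 42 tested genes, OASL alone was called lower, a share below that of all genes, and 0 were called higher. The fitted difference was negative for 38 of 42 (median -0.48), but 15 of 42 were positive in 786-O (median -0.29) against 4 of 42 in A-498 (-0.68), and 31 of 42 had the same sign in both lines. OASL was at 11.5, 21.2 and 11.0 CPM in 786-O and at 157, 417 and 154 CPM in A-498. Hairpin 3 lay at the control and hairpin 1 above it in both lines, a difference of -1.2 (SE 0.163, adjusted p = 0.0124). The RNA sensor DDX58 was at 22.2, 36.9 and 18.6 CPM in 786-O and at 128, 486 and 216 CPM in A-498 (-1.09, adjusted p = 0.0544). IFIT1 was at 43.4, 44.1 and 25.4 CPM in 786-O and at 80.4, 490 and 211 CPM in A-498 (-1.06, adjusted p = 0.254). Over the list, both hairpins lay above the control in A-498 (medians 1.8 for hairpin 1 and 1.15 for hairpin 3), and in 786-O the medians were 0.22 and 0.03. The count of 1 called lower became 9 with only the 4 hairpin libraries, 7 with DESeq2 and 2 with limma-voom. Without 1 library it was 11 (either control), 9 (786-O hairpin 1), 8 (A-498 hairpin 3) or 2 (786-O hairpin 3).

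Integrins and adhesion molecules held calls in both directions, with 4 of 25 lower and 2 higher (median -0.37). ITGB1, the common beta chain of fibronectin and collagen receptors, was at 1601, 1954 and 1016 CPM in 786-O and at 1432, 1427 and 584 CPM in A-498, a difference of -1.11 (SE 0.177, adjusted p = 0.0182). Its partner ITGAV (-1.09), the beta chain ITGB3 (-1.56) and L1CAM (-0.7) were also called lower. ITGA6, a laminin receptor chain, was at 50.6, 20.3 and 75.5 CPM in 786-O and at 63.0, 24.7 and 80.7 CPM in A-498 (1.8, SE 0.126, adjusted p = 0.00481). ITGB1 was thus lowest with hairpin 3 in each line and ITGA6 lowest with hairpin 1. ITGA2 was called higher (0.66). The 4 decreases became 8 without the 786-O hairpin 3 library and 7 without that of A-498.

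Tubule genes of the kidney were called lower in 4 of 24 cases and higher in 0 (median -0.46). CLDN2, the claudin that forms cation pores in proximal tubule junctions, was at 73.7, 49.6 and 12.3 CPM in 786-O and at 8.93, 6.96 and 1.61 CPM in A-498, a difference of -2.06 (SE 0.142, adjusted p = 0.00481). Hairpin 3 was the lowest in each line. SLC3A1, a cystine transporter subunit (-2.2), CDH16 (-1.65) and GGT1 (-0.49) were the others, and the count ran from 1 without the 786-O hairpin 1 library to 7 without the A-498 hairpin 3 library. SLC3A1 was at most 1.57 CPM in any library. Metallothioneins, which bind zinc and copper, had 3 of 6 called lower: MT1X (-2.12), MT1F (-2.78) and MT2A (-1.0). In A-498, MT1F was at most 0.275 CPM and MT1X at most 2.67 CPM. Metallothionein sequences are similar, so reads could have been split among these genes.

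Components of the RNA interference machinery itself differed in 5 of 16 cases. AGO2, which carries the guide and cuts its target, was called higher (0.64), at 26.0, 25.2 and 45.0 CPM in 786-O and at 19.3, 22.5 and 30.8 CPM in A-498. AGO4 (0.66) and TNRC6C, a partner of Argonaute (1.38), were also higher, and DICER1, which cuts hairpins into guides, was lower (-0.74). HSP90AA1, a chaperone that helps load Argonaute, was at 1593, 1897 and 1310 CPM in 786-O and at 1525, 1708 and 827 CPM in A-498 and was called lower (-0.78). In the list of double-stranded RNA sensing, 19 genes were tested and TRAF3 was called higher (0.71). TMEM173, which encodes the DNA-sensing adaptor STING and was also in that list, was called lower (-0.85).

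In ribosome biogenesis edgeR called 0 of 24, with 4 at an unadjusted p under 0.05, 1 called by DESeq2 and 0 by limma-voom; MYC differed by 0.44 (adjusted p = 0.0781). In the 15 mtDNA-encoded genes edgeR called 0, with 2 at an unadjusted p under 0.05, 1 called by DESeq2 and 0 by limma-voom. Cytosolic ribosomal proteins were positive in 31 of 31 cases with a median of 0.22, and RPL10 alone was called (0.84); these genes have many near-identical copies, so their counts are uncertain. Of 35 nuclear genes of oxidative phosphorylation, 5 were called lower and 0 higher (median -0.06), among them NDUFB3 (-0.73) and ATP5B (-0.6). That count became 0 or 1 when hairpin 1 of 786-O or of A-498 was left out, 1 or 2 when the control of 786-O or of A-498 was, and 1 with only the 4 hairpin libraries.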

How the data were processed

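RNA was measured in 6 libraries. The deposited table holds whole-number counts per gene symbol, which the authors did not normalize; the builds hg19 and hs37d5 and the tools DESeq2 and STAR are named, without versions or roles, per the submitters' processing notes. No source used here gives the counter, its annotation or its strand setting, so antisense, overlapping and near-identical genes are uncertain. No gene has a summed count under 2. Of 32357 genes, 20144 passed edgeR's expression filter over construct. A model with line and construct (edgeR 4.0.16, R 4.3.3, TMM scaling, quasi-likelihood F test, 6 libraries, 2 residual degrees of freedom) gave hairpin 3 minus hairpin 1, with Benjamini-Hochberg adjustment over all tested genes and a call at 0.05. Each standard error is the log2 difference divided by the root of F. Line and construct values are log2 CPM with a prior count of 2. The cell line is the replicate number and pairs the libraries. Limma 3.58.1 (voom) and DESeq2 1.42.0 were alternatives. No value column was left unlisted (0).

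The comparison and the gene lists were chosen with earlier results of these data known. Named genes are ZNF395, the 10 largest increases and decreases among called genes that averaged 5 CPM or more in the hairpin libraries and had the same sign in both lines, the 6 smallest p-values, and up to 4 called members of each list by p (or the member with the smallest p). Other subunits and family members, all other list members named and the printed promoters were chosen after their values were seen. Some members of the cholesterol list are not reported here by name. Gene types and overlaps come from GENCODE 29 by symbol, and promoters from RefSeq, printed with 30 bases on each side of the matches where the window allows.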

Additional observations from a re-analysis of the deposited data

Results flagged for a closer look

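In 5 lists the median difference between hairpin 3 and hairpin 1 had opposite signs in the lines, each at least 0.1 in size, and in none of them could the difference between lines be tested with 1 library per line and construct. DNA replication genes had a median of 0.39 in 786-O and -0.53 in A-498, a gap of -0.92. Mitosis genes had 0.43 and -0.11, a gap of -0.54. NRF2 targets and detoxification genes had -0.13 and 0.22, a gap of 0.35. The 3 tested endothelial markers had 0.94 and -0.54, a gap of -1.48, at summed levels of at most 2.33 CPM per library. The 4 tested immune markers had -1.17 and 0.76, a gap of 1.93, at summed levels of at most 6.19 CPM.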

How the results depend on the processing

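The counts of 823 higher and 1087 lower genes changed to 410 and 614 with only the 4 hairpin libraries, to 1290 and 1827 without the filter on low counts, and to 1328 and 1662 with DESeq2. Without the replicate block, which pairs the libraries by line, they were 0 and 0, with 731 genes at an unadjusted p under 0.05. Other scalings kept the counts within 1.5 times (806 and 1105 with relative log expression factors, 760 and 1189 with upper-quartile factors), as did limma-voom (823 and 1060). No alternative called a gene in the opposite direction (0). Leaving out single libraries gave 367 to 1614 higher and 500 to 1812 lower genes: removing hairpin 1 left 867 in all for the 786-O library and 968 for the A-498 library, removing hairpin 3 gave 3426 and 2760, and the totals were 1215 and 1277 without the control of 786-O or of A-498. These fits have 1 residual degree of freedom and assume that the lone library varies like the others. Of 156 called genes checked singly, 156 stayed called with DESeq2, 150 with limma-voom, 116 with the 4 hairpin libraries and 89 without the 786-O hairpin 1 library. Genes that were not called changed sign when a library was left out, with ranges of -0.26 to 0.62 for AP1M2, -0.18 to 0.37 for SMARCD3, -0.52 to 0.26 for ANXA4, -0.12 to 0.09 for SMARCA4, -0.73 to 0.25 for HIF1A, -1.31 to 1.0 for SLC7A11, -0.05 to 0.42 for SLC7A1, -1.14 to 0.53 for TM7SF2, -0.69 to 0.21 for SOX2 and -0.06 to 0.27 for MDM2. The cause of these changes was not tested beyond the smaller number of libraries or genes that each alternative fits. Depth was not varied.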

Other observations

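Among cell cycle genes, CCNE1, the cyclin that starts S phase, was at 11.0, 8.65 and 3.01 CPM (control, hairpin 1, hairpin 3) in 786-O and at 24.1, 17.1 and 6.14 CPM in A-498, a difference of -1.5 (adjusted p = 0.0087). MCM3, a subunit of the replicative helicase, was at 197, 84.7 and 227 CPM in 786-O and at 115, 58.9 and 109 CPM in A-498 (1.16, adjusted p = 0.0124), low with hairpin 1 in each line. RRM1, the large subunit of ribonucleotide reductase, was called lower (-1.05), and of 28 mitosis genes CCNA2 (0.85) and KIF20A (0.69) were called higher and 0 lower. CCNA2 overlaps EXOSC9 on the opposite strand. Of 31 replication genes, 25 were positive in 786-O and 2 in A-498, and 8 of the 31 had the same sign in both lines; 1 was called higher and 2 lower.

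Of 28 lysosome and autophagy genes, 3 were called higher and 3 lower. CTSS, a cathepsin of antigen processing, was at 25.3, 67.4 and 24.4 CPM in 786-O and at 40.4, 107 and 44.6 CPM in A-498 (-1.36, adjusted p = 0.0076), and both hairpin 1 libraries stood above the other 4. CTSB (0.86), ULK1 (0.63) and NPC2 (0.54) were called higher, and MAP1LC3B (-0.72) and BECN1 (-0.54) lower. Among 24 YAP/TEAD targets, FJX1 (1.53), F3 (0.98), DLC1 (0.77) and TEAD1 (0.56) were called higher and 0 lower. In the TGF-beta list of 18, the receptor TGFBR1 (0.95), SKI (0.72) and ID3 (0.63) were called higher, and BAMBI (-0.71) and LTBP2 (-0.73) were called lower. Of 23 genes of the BCL2 family and apoptosis, BCL2L11 (-1.23), BMF (-1.61) and BIRC2 (-0.63) were called lower, and BBC3 and APAF1 (0.73) higher. Without the 786-O hairpin 1 library, the YAP/TEAD increases became 2 and those of TGF-beta 1; without the A-498 hairpin 1 library, lysosomal calls became 1 in each direction.

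Heat shock proteins had 2 of 14 called lower, HSP90AA1 and HSPA4 (-0.54). Of 22 genes of the citric acid cycle and beta-oxidation, OGDH (-0.89) and ACAA2 (-1.71) were called lower. Of 24 collagen and matrix genes, COL4A1 (-0.68) and THBS1 (-0.8) were called lower and LAMA4 (1.05) higher. LAMA4 was at most 0.101 CPM in 786-O, so its difference rests on A-498. JUND (0.6) and KLF4 (0.9) were called higher among 24 immediate early genes, and ME1 lower (-0.57) among 22 NRF2 targets. ERAP2 (0.54) was called higher among 17 genes of MHC class I presentation, and HIST1H2AC (-1.47) was called lower among 12 histone genes, whose near-identical copies make their counts uncertain. COL4A1 overlaps COL4A2 on the opposite strand.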
